A study of Rattus norvegicus with 16 samples.

Results

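The AP-1 and immediate early factors examined here are the genes Fos, Fosb, Fosl1, Fosl2, Junb, Jund, Atf3, Egr1, Egr3 and Ier3, chosen by symbol. Of these 10 genes, 9 had a probe set annotated to that gene alone, out of 18166 genes measured, and Fosl2 was not analysed here. The samples were distal sciatic nerves from male Sprague Dawley rats that were 6 weeks old. On 1 side the nerve had been resected and its distal end turned away so that axons could not regrow, and tissue was collected at 3 or 7 days post injury (DPI). The uninjured nerve of the opposite side came from the injured animals of each day, so the controls had been through surgery and analgesia too. Injured and contralateral nerve at 2 times made 4 groups of 4 Affymetrix Rat Gene 2.0 ST arrays, called biological replicates in the labels, which tie no replicate number to an animal. All values are log2 RMA values, that is, background-corrected, quantile-normalised and summarised probe intensities.

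AP-1 is a family of dimers built from FOS, JUN and ATF proteins, which pair through a leucine zipper and bind DNA through the basic stretch beside it. FOS proteins need a JUN partner, whereas JUN proteins can also pair with each other. Many of these genes are immediate early genes, which cells switch on after growth factor, stretch or stress signals from factors already present, without making new protein. In peripheral nerve, c-Jun is known in mice as a driver of the repair state that Schwann cells enter after axons are lost, and ATF3 is widely used to mark injured neurons and the Schwann cells distal to a cut. The EGR proteins are zinc finger factors of the same rapid response. IER3 belongs to the rapid response but binds no DNA and is known for its part in survival and ERK signalling.

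The proximal promoters of 5 of the 9 measured genes (Fosb, Fosl1, Junb, Jund and Egr1) were present in RefSeq on the rat assembly GRCr8, each as 250 bases before and 50 after the start site. Those of Fos, Atf3, Egr3 and Ier3 were not used here. Both strands were searched for the AP-1 site TGAGTCA, the cAMP response element TGACGTCA, its half-site TGACG, the CArG box bound by serum response factor, and the EGR site GCGTGGGCG. A half-site lies within every full cAMP response element. Among all 33469 promoters of that table, 4.63% held the AP-1 site, 1.83% the full element, 21.2% the half-site, 1.64% a CArG box and 0.544% the EGR site. Of them 3 are shown because their genes behaved differently in the nerve, as given further on, with every match in capitals. The first is the promoter of the member with the largest change at 3 DPI, at chr1:212183635-212183934 on the plus strand. The next is that of a textbook immediate early gene that was not called, at chr18:26736828-26737127 on the plus strand, and the last that of the member with the smallest p between the days in injured nerve, at chr16:18769722-18770021 on the minus strand.
Fosl1: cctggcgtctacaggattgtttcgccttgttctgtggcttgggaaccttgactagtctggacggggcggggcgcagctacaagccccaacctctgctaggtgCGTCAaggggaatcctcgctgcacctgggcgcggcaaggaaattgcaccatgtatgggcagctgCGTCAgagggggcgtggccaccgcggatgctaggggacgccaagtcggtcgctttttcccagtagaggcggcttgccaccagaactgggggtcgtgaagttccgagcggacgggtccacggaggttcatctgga
Egr1: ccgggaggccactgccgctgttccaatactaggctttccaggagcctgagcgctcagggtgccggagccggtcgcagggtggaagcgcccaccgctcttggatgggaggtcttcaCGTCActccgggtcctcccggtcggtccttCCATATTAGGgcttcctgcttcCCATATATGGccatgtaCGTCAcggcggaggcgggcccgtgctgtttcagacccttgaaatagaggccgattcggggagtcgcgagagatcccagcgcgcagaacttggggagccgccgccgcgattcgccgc
Jund: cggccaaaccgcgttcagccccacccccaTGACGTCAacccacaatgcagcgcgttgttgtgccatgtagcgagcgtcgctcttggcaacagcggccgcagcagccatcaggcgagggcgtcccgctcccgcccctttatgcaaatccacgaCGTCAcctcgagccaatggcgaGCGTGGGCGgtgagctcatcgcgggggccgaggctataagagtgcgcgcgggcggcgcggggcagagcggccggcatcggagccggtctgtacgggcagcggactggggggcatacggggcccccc
The Fosl1 window held 2 half-sites, read on the opposite strand, and none of the other motifs. The Egr1 window held 2 CArG boxes, whose first bases lay 105 and 83 bases before the start, and 2 half-sites. The Jund window held 1 full cAMP response element 221 bases before the start, 1 further half-site and 1 EGR site. None of the 5 windows held TGAGTCA, and Fosb had no match to any of the 5 motifs. A match here is a string of letters and was not tested for binding.

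The labelled tissue was checked first. In the contralateral arrays, the mean of 7 myelin genes lay between 11.94 and 12.38 and that of 6 Schwann cell genes between 8.95 and 9.31, above the median of all genes (6.90 to 7.02). Array pairs within a group correlated at 0.981 to 0.989. In whole nerve, more cells of a type and more RNA per cell cannot be told apart. Macrophage and cell division genes moved with injury as well. Of 10 macrophage markers 9 rose at 3 DPI and 3 at 7 DPI under the calling rule given below (3.25% and 2.48% of all genes did). On the limma adjusted p alone, all 10 were higher on each day (18.8% and 19.1% of all genes were). The mean of that list ran from 7.60 to 8.35 in contralateral and from 9.36 to 9.61 in injured 3 DPI arrays. At 7 DPI it ran from 8.06 to 8.47 and from 8.84 to 9.43. The mean of 7 cell division genes ran from 5.96 to 6.54 and from 8.78 to 9.30 at 3 DPI, and from 6.73 to 7.20 and from 8.78 to 8.98 at 7 DPI. Of 8 neutrophil markers 2 rose at 3 DPI and 1 at 7 DPI (3.25% and 2.48% of all genes did). On the limma adjusted p alone, 2 were higher at 3 DPI, and 3 were higher and 1 lower at 7 DPI. The median log2 changes of this list were 0.271 and -0.031. Their mean ran from 5.42 to 5.69 in contralateral and from 5.80 to 5.90 in injured 3 DPI arrays. At 7 DPI it ran from 5.47 to 5.68 and from 5.66 to 5.74. Other lists shifted too. Their median log2 changes at 3 and 7 DPI were -0.358 and -0.535 for endothelial genes and -0.318 and -0.591 for smooth muscle and pericyte genes. They were -0.212 and 0.102 for Schwann cell genes, 0.279 and -0.263 for mesenchymal and perineurial genes, and 0.155 and 0.235 for T and NK cell genes. Adipocyte genes had -0.227 and -1.024 and skeletal muscle genes 0.206 and 0.538. All genes had -0.005 and -0.004. Genes within some lists moved both ways. On the limma adjusted p alone at 3 DPI, 3 of 7 mesenchymal and perineurial genes were higher and 3 lower (18.8% and 14.7% of all genes). The counts were 2 and 1 of 8 T and NK cell genes and 1 and 2 of 6 endothelial genes. They were 1 and 3 of 5 smooth muscle and pericyte genes. The part of these cells in the results on AP-1 was not tested.

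The first question was which of these factors differed between injured and contralateral nerve on each day. Fosl1, Atf3, Fos and Ier3 rose at 3 DPI, by 6.49-fold, 4.93-fold, 3.53-fold and 2.23-fold, and Fosl1 and Atf3 were still raised at 7 DPI, by 4.97-fold and 7.32-fold. No member fell on either day. Calls required a limma adjusted p below 0.05 and a change of 2-fold or more. By that rule 4 of 9 members were higher at 3 DPI, where 3.25% of all genes were, and 2 of 9 at 7 DPI, where 2.48% were. The members were chosen with earlier results of these data known, so such shares are given for scale and not as a test. On the adjusted p alone the counts were 5 and 6 of 9 higher, against 18.8% and 19.1% of all genes. The median log2 change of the 9 members was 0.92 at 3 DPI and 0.46 at 7 DPI, beside -0.005 and -0.004 for all genes. All 4 injured arrays lay above all 4 contralateral arrays for 6 members at 3 DPI (19.3% of all genes did) and for 5 at 7 DPI (18.9%).

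**Figure D1:**
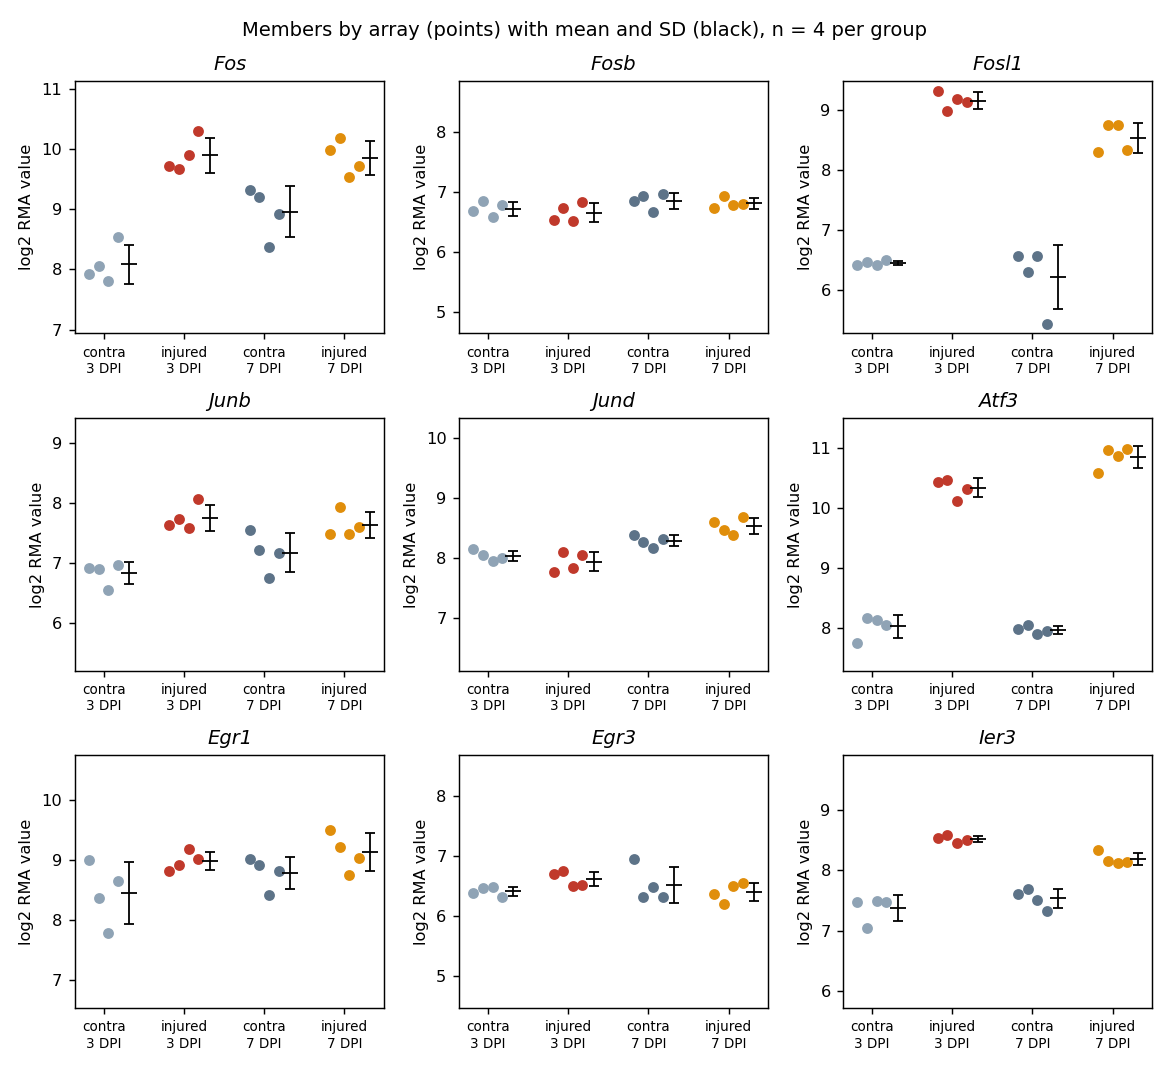
Log2 RMA values of the 9 measured members in each of the 16 arrays (points), by group, with the group mean and SD (n = 4) in black. Every panel spans the same height on the log2 axis, so that the wide gaps of Fosl1 and Atf3 and the flat panels of Fosb and Egr3 can be read directly.

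Among the FOS proteins, Fosl1 (probe set 17623115) encodes FRA1, which lacks the strong activation domain of FOS and stays induced longer. It read 6.43, 6.47, 6.43 and 6.50 in the contralateral 3 DPI nerves and 9.32, 8.98, 9.18 and 9.13 in the injured ones. In the 7 DPI nerves it read 6.57, 6.31, 6.58 and 5.44 on the contralateral side and 8.30, 8.75, 8.76 and 8.34 on the injured side. All injured arrays stood clear of all contralateral arrays, and contralateral 7 DPI replicate 4 was the lowest array of its group. The log2 change was 2.70 ± 0.19 (SE, n = 4 per group, limma adjusted p = 8.96e-09) at 3 DPI and 2.31 ± 0.19 (adjusted p = 8.61e-08) at 7 DPI. Leaving out any 1 array kept these changes between 2.64 and 2.75 and between 2.05 and 2.43.

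Fos (probe set 17817508), the founding member of the family and a short-lived mRNA, read 7.92, 8.06, 7.81 and 8.55 in contralateral and 9.73, 9.67, 9.90 and 10.31 in injured 3 DPI nerves. At 7 DPI it read 9.33, 9.20, 8.37 and 8.93 in contralateral and 9.99, 10.18, 9.53 and 9.72 in injured nerves. The injured arrays of both days thus lay in 1 range, while 3 of the 4 contralateral 7 DPI arrays lay above every contralateral 3 DPI array. The change was 1.82 ± 0.21 at 3 DPI (adjusted p = 2.98e-06), and at 7 DPI it was 0.90 ± 0.21 (adjusted p = 0.00316), just short of 2-fold. The 2-fold minimum at 7 DPI was passed without contralateral 7 DPI replicate 1 (1.02), without injured 7 DPI replicate 3 (1.01), and with the 8 contralateral arrays as 1 control group (1.34, adjusted p = 0.00039).

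Fosb (probe set 17630236), whose short splice form is the long-lived deltaFosB of brain studies, ran from 6.51 to 6.97 over the 16 arrays and lay at the 40.5 to 49.9 percentile of the genes of an array. Its changes were -0.07 ± 0.09 at 3 DPI (95% interval -0.26 to 0.13, adjusted p = 0.656) and -0.04 ± 0.09 at 7 DPI (-0.24 to 0.15, adjusted p = 0.77), so the intervals leave out a 2-fold change in either direction. Signal was not set against background, and a change of a dim transcript can be understated on arrays.

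Of the JUN partners, Junb (probe set 17728638), an immediate early gene that can oppose c-Jun, read 6.91, 6.90, 6.55 and 6.96 in contralateral and 7.64, 7.73, 7.58 and 8.07 in injured 3 DPI nerves. Those groups did not overlap, and the change of 0.92 ± 0.16 passed the adjusted p (0.000162) but lay under 2-fold. At 7 DPI the contralateral arrays read 7.54, 7.22, 6.75 and 7.17 and the injured ones 7.48, 7.94, 7.48 and 7.60, which overlapped, with a change of 0.46 ± 0.16 (adjusted p = 0.0337). That adjusted p was passed no longer without contralateral 7 DPI replicate 2, 3 or 4 or injured 7 DPI replicate 2 or 4 (0.053 to 0.12). For Junb 1 contralateral 7 DPI array, replicate 1, lay above 2 of the injured arrays of that day.

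Jund (probe set 17710887), the JUN protein that resting cells already hold, behaved in another way. It read 8.15, 8.05, 7.95 and 8.0 in contralateral and 7.77, 8.09, 7.83 and 8.06 in injured 3 DPI nerves, and the groups overlapped (change -0.10 ± 0.09, adjusted p = 0.453). At 7 DPI it read 8.39, 8.27, 8.17 and 8.32 on the contralateral and 8.59, 8.47, 8.39 and 8.68 on the injured side. Those groups met near 8.39 without overlapping. The 7 DPI change of 0.24 ± 0.09 had an adjusted p of 0.0433 and was far below 2-fold. It no longer passed under 12 alternatives, 8 of them leaving out 1 array (contralateral 3 DPI replicate 2 or 4, contralateral 7 DPI replicate 2, 3 or 4, injured 7 DPI replicate 1, 2 or 4), with adjusted p of 0.051 to 0.18.

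Atf3 (probe set 17687609) encodes a stress-induced factor that pairs with JUN proteins and binds AP-1 and cAMP response element sites. It read 7.76, 8.17, 8.14 and 8.05 in contralateral and 10.43, 10.46, 10.12 and 10.31 in injured 3 DPI nerves. In the 7 DPI nerves it read 7.99, 8.06, 7.90 and 7.94 and then 10.59, 10.96, 10.86 and 10.97. The contralateral values of both days sat within 7.76 to 8.17, and the lowest injured 7 DPI array lay above the highest injured 3 DPI array. Its changes were 2.30 ± 0.11 (adjusted p = 7.24e-11) and 2.87 ± 0.11 (adjusted p = 4.97e-12), and without any 1 array they stayed between 2.21 and 2.37 and between 2.83 and 2.96.

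Egr1 (probe set 17722348) is a zinc finger factor that growth factors induce within minutes in most cells. It read 9.0, 8.37, 7.78 and 8.65 in contralateral and 8.82, 8.91, 9.18 and 9.02 in injured 3 DPI nerves, and 9.01, 8.92, 8.41 and 8.81 and then 9.50, 9.22, 8.75 and 9.03 at 7 DPI. The groups overlapped on each day, and the contralateral 3 DPI nerves had the widest spread of any group for this gene (SD 0.52). The changes of 0.53 ± 0.21 (95% interval 0.08 to 0.98, adjusted p = 0.0672) and 0.34 ± 0.21 (-0.11 to 0.79, adjusted p = 0.26) did not pass the test. The 3 DPI value rested on single contralateral 3 DPI arrays, being 0.72 (adjusted p = 0.011) without replicate 1 and 0.31 (adjusted p = 0.24) without replicate 3. It also passed the adjusted p with array weights (0.042) and without the dimmest 30% of genes (0.045), and the 7 DPI value passed with the 8 contralateral arrays as 1 control group (0.51, adjusted p = 0.048). Egr3 (probe set 17699889), a relative known from muscle spindle development, ran from 6.19 to 6.96 over the 16 arrays. Its changes were 0.21 ± 0.12 (adjusted p = 0.233) and -0.12 ± 0.12 (adjusted p = 0.509). The 95% intervals of Egr1 and Egr3 lay inside 2-fold on each day.

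Ier3 (probe set 17756250) read 7.47, 7.05, 7.48 and 7.48 in contralateral and 8.55, 8.59, 8.46 and 8.51 in injured 3 DPI nerves. At 7 DPI it read 7.61, 7.69, 7.51 and 7.32 and then 8.34, 8.16, 8.12 and 8.15. The injured arrays were tightly grouped and clear of the contralateral ones on each day. The change was 1.15 ± 0.10 (adjusted p = 1.2e-07) at 3 DPI, which was called, and 0.66 ± 0.10 (adjusted p = 7.76e-05) at 7 DPI, which was not.

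**Figure D2:**
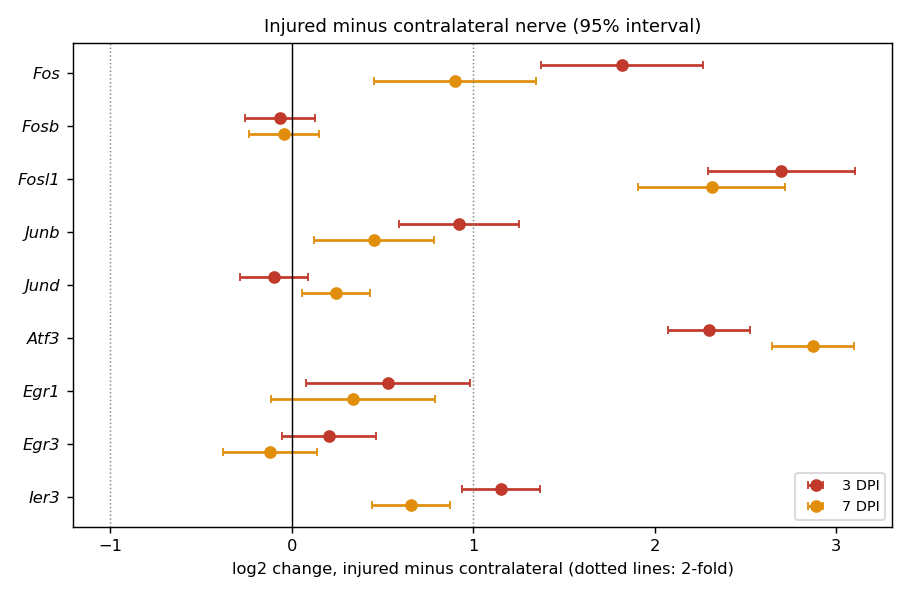
Log2 change of each member, injured minus contralateral, at 3 and 7 DPI, with 95% intervals of the limma fit (n = 4 per group) and dotted lines at 2-fold. Fosl1 and Atf3 lie beyond 2-fold on each day, Fos and Ier3 at 3 DPI only, and the other 5 members on neither.

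The next question was whether the injury effect itself differed between the days. The difference of the effects, 7 DPI minus 3 DPI, was called for 0 of 9 members by limma (0.385% of all genes), and none passed the adjusted p alone (1.72%), while 4 had an unadjusted p under 0.05 (13.6% of all genes). These were Atf3 (0.57 ± 0.15, adjusted p = 0.0711), Ier3 (-0.50 ± 0.14, adjusted p = 0.107), Fos (-0.92 ± 0.30, adjusted p = 0.159) and Jund (0.34 ± 0.12, adjusted p = 0.226). Atf3 and Jund thus pointed toward a larger effect at 7 DPI, and Fos and Ier3 toward a smaller one, none past the correction. Atf3 passed it without contralateral 3 DPI replicate 1 (0.66, adjusted p = 0.019) or injured 7 DPI replicate 1 (0.66, adjusted p = 0.024). That Fos and Ier3 were called at 3 DPI alone is therefore not shown to be a difference between the days.

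Taking the injured nerves alone, 0 of 9 members reached 2-fold between the days in limma (0.319% of all genes), but 2 passed the adjusted p, where 4.02% of all genes did. Jund was higher at 7 than at 3 DPI by 0.59 ± 0.09 (1.51-fold, adjusted p = 0.000772), with every injured 7 DPI array above every injured 3 DPI array. Atf3 was higher by 0.51 ± 0.11 (1.43-fold, adjusted p = 0.0108). Fosl1 (-0.62 ± 0.19, adjusted p = 0.0886) and Ier3 (-0.33 ± 0.10, adjusted p = 0.0811) had lower values at 7 DPI in arrays that did not overlap, without passing the test. Fosl1 passed the adjusted p without contralateral 7 DPI replicate 4 (0.005), the array low for this gene, which enters the shared spread, and Ier3 without contralateral 3 DPI replicate 2 (0.031). In all, 4 members had an unadjusted p under 0.05 here (17.3% of all genes), and 2 members had arrays wholly above and 2 wholly below (7.37% and 4.64% of all genes). Fos differed by -0.05 ± 0.21 (95% interval -0.49 to 0.40), an interval that lies within 2-fold.

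The contralateral nerves gave the other part of the picture. No member was called between contralateral 7 and 3 DPI nerves in limma (0 of 9, against 0.011% of all genes, and 0 on the adjusted p alone, against 0.0716%), and 3 had an unadjusted p under 0.05 (11.2% of all genes). Fos was the largest of them, 0.87 ± 0.21 higher in the 7 DPI nerves (adjusted p = 0.121), followed by Junb (0.34 ± 0.16, adjusted p = 0.431) and Jund (0.25 ± 0.09, adjusted p = 0.297). The difference of the Fos effects, -0.92, is by construction the -0.05 of injured nerve less this 0.87 of contralateral nerve. Jund was the only member whose 4 contralateral 7 DPI arrays all lay above the 4 contralateral 3 DPI arrays (2.92% of all genes did). Jun, a related gene, differed by 0.49 ± 0.11 in the same comparison (adjusted p = 0.0945). The contralateral 7 DPI arrays also differed from those of 3 DPI in other genes. The mean of 7 adipocyte genes was 8.71, 8.61, 8.23 and 7.44 in contralateral 7 DPI replicates 1 to 4, against 6.68 to 7.79 at 3 DPI, and cell division genes read 6.73 to 7.20 against 5.96 to 6.54. The mean of 5 skeletal muscle genes was 8.32 in injured 7 DPI replicate 1. Without the 3 arrays highest in adipocyte or skeletal muscle genes (contralateral 7 DPI replicates 1 and 2 and injured 7 DPI replicate 1), a setting chosen after seeing the data, 4 members were called at 3 DPI and 3 at 7 DPI, Fos being added at 1.16 (adjusted p = 0.0047), and the contralateral difference of Fos was 0.57 (adjusted p = 0.39). The 2 contralateral 7 DPI arrays left out were also the highest of that group for Fos (9.33 and 9.20). Replicates 3 and 4 remained, at 8.37 and 8.93. The part of adipose and muscle tissue in the Fos values was not tested.

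**Figure D3:**
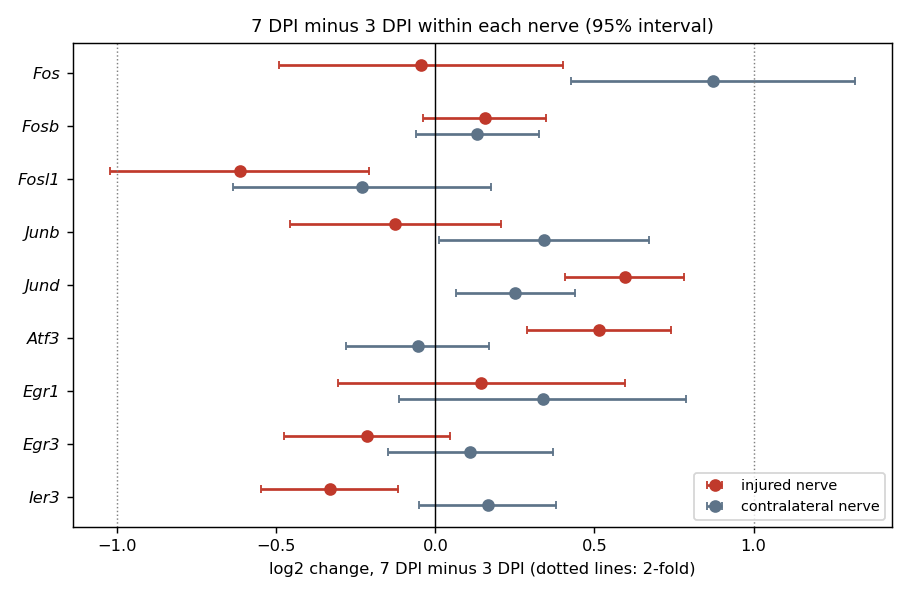
Log2 change from 3 to 7 DPI of each member within injured and within contralateral nerve, with 95% intervals of the limma fit (n = 4 per group) and dotted lines at 2-fold. Fos sits near 0 in injured and at 0.87 in contralateral nerve, whereas Atf3 and Jund lie at 0.51 and 0.59 in injured nerve.

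How the members varied from nerve to nerve within a group was then described, taking each array's deviation from its group mean over the 16 arrays. The points share arrays and normalisation, so no test is given. Fos and Junb deviated together (r = 0.82), as did Fosb and Junb (r = 0.77) and Fos and Fosb (r = 0.62), and Egr1 followed Fos (r = 0.58) and Junb (r = 0.54). Jund had values of 0.29 with Fos, 0.49 with Fosb, 0.49 with Junb and 0.47 with Egr1. Contralateral 7 DPI replicate 3 was low for Fos, Junb, Egr1 and Fosb, at -0.58 for Fos, -0.42 for Junb, -0.38 for Egr1 and -0.19 for Fosb. Fosl1 and Atf3, the members with the largest injury changes, had almost no such tie to Fos (r = -0.004 and 0.03). Across all 16 values, group differences included, Fosl1 and Atf3 correlated at 0.93 but deviated together only at 0.13 within groups. Atf3 and Egr1 had the lowest value of the 36 pairs (r = -0.57).

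**Figure D4:**
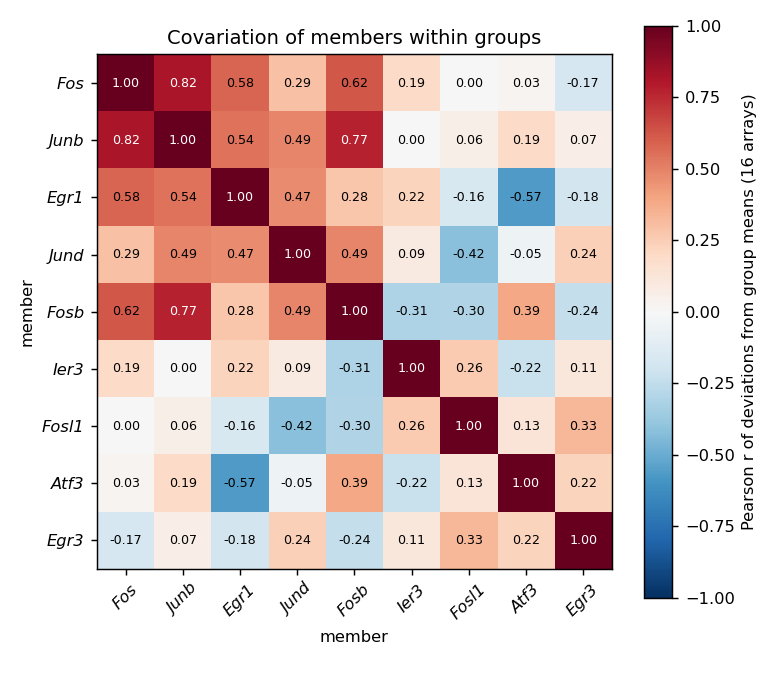
Pearson r of deviations from group means over 16 arrays for each pair of the 9 members, on a colour scale from -1 to 1. Pairs among Fos, Junb, Fosb, Egr1 and Jund have values from 0.28 to 0.82, and Fosl1 has values from -0.42 to 0.06 with these 5.

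The related genes of the same pathways were counted next, in lists chosen with results of these arrays known. Of 10 AP-1 relatives, 1 rose at each day (3.25% and 2.48% of all genes did) and none fell, with medians of 0.08 and 0.01. This was Jun, which encodes c-Jun, the main partner of the FOS proteins, at 1.73 ± 0.11 (3.31-fold, adjusted p = 2.1e-09) and 1.46 ± 0.11 (2.75-fold, adjusted p = 2.5e-08). Jun read 8.79 to 9.16 in contralateral and 10.51 to 10.76 in injured 3 DPI nerves, and 9.16 to 9.59 and 10.65 to 10.98 at 7 DPI, with no overlap on either day. Its second, dimmer probe set differed by 1.05 and 1.16. Batf3, a partner of JUN proteins in leukocytes, passed the adjusted p at 0.87 ± 0.12 on each day without reaching 2-fold. Jdp2 and Atf7 passed it downward at 3 DPI (-0.19 ± 0.07, limma adjusted p = 0.041 for each). They did not at 7 DPI (-0.01 ± 0.07 and -0.13 ± 0.07). Atf2 (0.02 ± 0.06 and 0.12 ± 0.06) and the small Maf genes Maff, Mafg and Mafk passed on neither day.

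Among 4 EGR relatives and NAB cofactors, 2 fell at 3 DPI and 1 at 7 DPI (2.55% and 2.17% of all genes fell), and none rose. Egr2, the zinc finger factor that drives myelination, fell by 1.75 ± 0.20 (3.37-fold, adjusted p = 3e-06) at 3 DPI and by 1.21 ± 0.20 (2.31-fold, adjusted p = 0.00018) at 7 DPI. Nab1, an EGR cofactor, fell by 1.05 ± 0.12 at 3 DPI and lay at -0.94 ± 0.12 at 7 DPI. Egr4 (-0.10 ± 0.11 and -0.04 ± 0.11) and Nab2 (0.03 ± 0.14 and -0.04 ± 0.14) passed the adjusted p on neither day. Myelin genes moved in the same direction: 7 of 7 fell on each day (medians -2.69 and -4.59), and their mean ran from 9.43 to 9.87 in injured 3 DPI and from 8.12 to 8.50 in injured 7 DPI arrays, and their part in the Egr2 and Nab1 values was not tested.

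Of 20 measured genes of the wider immediate early response, 3 rose at 3 DPI (3.25% of all genes did) and 1 rose and 1 fell at 7 DPI (2.48% and 2.17%), with medians of 0.39 and 0.14. The growth arrest gene Gadd45b rose on each day (1.66 ± 0.09 and 1.23 ± 0.09), and Socs3, a brake on cytokine signalling (1.11 ± 0.11), and Phlda1 (1.11 ± 0.10) rose at 3 DPI. The orphan nuclear receptor Nr4a2 lay at -0.92 ± 0.18 at 3 DPI and fell by 1.09 ± 0.18 at 7 DPI, and its relative Nr4a1 lay at -0.73 ± 0.18 and -0.81 ± 0.18, with adjusted p of 0.004 and 0.002. On the adjusted p alone, 11 of the 20 were higher and 3 lower at 3 DPI, where 18.8% and 14.7% of all genes were. At 7 DPI 8 were higher, where 19.1% of all genes were, and 4 were lower. Of the 18166 genes, 5833 passed it that day in either direction. Ier2, called on neither day, had values of 0.64 ± 0.16 (adjusted p = 0.0037) and 0.35 ± 0.16 (adjusted p = 0.11). Between contralateral nerves of the 2 days none of the 20 passed the adjusted p in limma (0.0716% of all genes did). An unadjusted p under 0.05 was reached by 5 of them (11.2% of all genes), with a median change of 0.17.

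Of 16 measured kinases and factors upstream of these genes, none was called on either day in limma. Of all genes 3.25% rose and 2.55% fell at 3 DPI, and 2.48% rose and 2.17% fell at 7 DPI. With shares this low, the absence of calls among 16 genes says little about them. An unadjusted p under 0.05 was reached by 7 and 9 of them (40.5% and 40.2% of all genes). Srf, the serum response factor that binds CArG boxes, lay at 0.14 ± 0.09 and 0.08 ± 0.09 (adjusted p = 0.27 and 0.57). The JNK genes, whose products phosphorylate JUN proteins, differed: Mapk9 passed the adjusted p upward (0.39 ± 0.08 and 0.76 ± 0.08), Mapk10 downward (-0.79 ± 0.15 and -0.58 ± 0.15) and Mapk8 on neither day. Kinase activity is not seen in mRNA values. Of 15 genes described elsewhere as AP-1 or c-Jun targets, 6 rose at 3 DPI and 3 at 7 DPI (3.25% and 2.48% of all genes did), and none fell, with medians of 0.80 and 0.60. They included Ngfr, the low-affinity neurotrophin receptor (2.65 ± 0.13 and 3.00 ± 0.13), Ccnd1, cyclin D1 (1.88 ± 0.11 and 1.62 ± 0.11), Hmox1, heme oxygenase 1, and Shh, a secreted signal. Hmox1 rose at 3 DPI (3.42 ± 0.17) and lay at 0.94 ± 0.17 at 7 DPI, and the difference of the effects was called (-2.48 ± 0.25, adjusted p = 4.4e-05). Shh rose at 3 DPI (1.68 ± 0.17) and lay at 0.34 ± 0.17 at 7 DPI (adjusted p = 0.16), with a called difference of -1.34 ± 0.24 (adjusted p = 0.009). The collagenase and stromelysin genes Mmp13 (0.10 ± 0.15 at 3 DPI, 0.81 ± 0.15 at 7 DPI) and Mmp3 (-0.13 ± 0.10 and -0.03 ± 0.10), long-known AP-1 targets in other cells, were not called on either day, although Mmp13 passed the adjusted p at 7 DPI (0.00033).

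**Figure D5:**
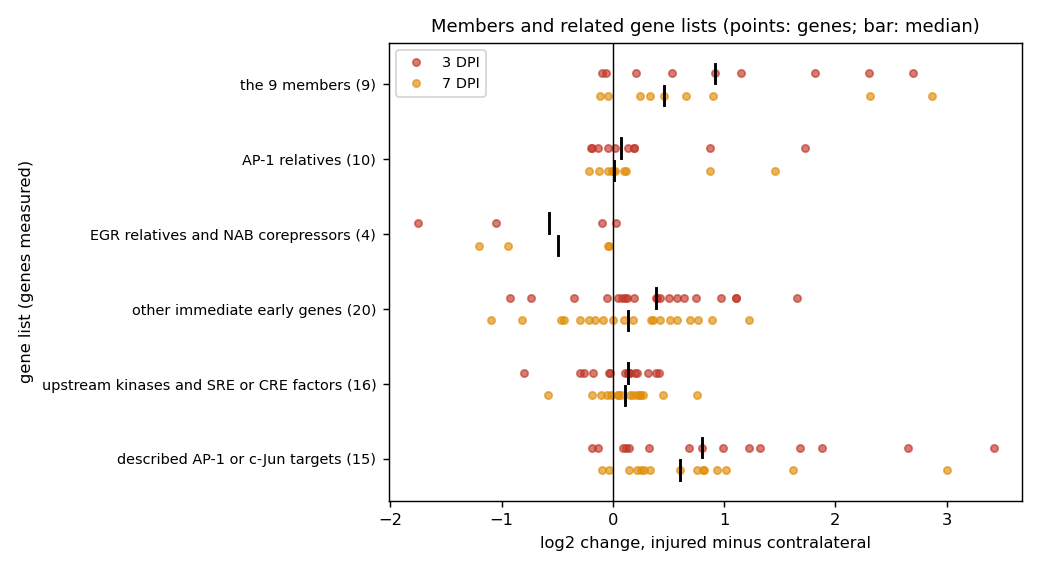
Log2 change, injured minus contralateral, of the 9 members and of each gene in 5 related lists at 3 and 7 DPI, with a bar at the list median and the number of genes measured in brackets. The members have medians of 0.92 and 0.46 and the described AP-1 or c-Jun targets of 0.80 and 0.60, while the other lists lie closer to 0 or, for the EGR relatives and NAB cofactors, below it.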

How the data were processed

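Gene expression was measured in 16 rat sciatic nerves with Affymetrix Rat Gene 2.0 ST arrays. The log2 values deposited are RMA output of the oligo package, in which the authors corrected background, normalised quantiles and summarised probes, with versions not given in the sources used here. Quantile normalisation hides a change shared by most genes, and precision is limited by 4 arrays a group. Names came from the annotation of the platform: 18511 of 36685 had 1 symbol, and for 291 genes with more than 1 probe set the brightest over the 16 arrays was kept, giving 18166 genes. Each measured member had 1 probe set.

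The test was limma (version 3.58.1, R 4.3.3), as 1 fit of 4 group means (12 residual and 4.08 prior degrees of freedom), and p-values were adjusted by Benjamini-Hochberg over all 18166 genes. The threshold of 0.05 with at least 2-fold is the one the study's methods give for other arrays. The script was tested on simulated data. Each member, 5 related gene lists and 11 marker lists were followed in 5 comparisons. All members are named. From each related list up to 4 called genes with the largest change were taken, with Jun, Egr2, Srf, Nr4a1 and Ier2. For each member the 3 genes of highest correlation over the arrays were taken, leaving out symbols that begin with LOC or RGD. Batf3, Jdp2, Atf7, Atf2, the small Maf genes, the JNK genes, Mmp3 and Mmp13 were added after their values were seen. Members and lists were chosen with earlier results of these data known. The alternatives tried were averaging probe sets, a filter on the dimmest 30% of genes, dropping the fold minimum, median centring, cyclic loess, trend and robust settings, array weights, the compared groups alone, pooled controls, a replicate block and leaving out each array. Tables and plots were made with Python 3.11.15, pandas 2.3.3 and matplotlib 3.10.9. Promoter sequences are from RefSeq, GRCr8.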

Additional observations from a re-analysis of the deposited data

Results flagged for a closer look

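Within the groups of 4 arrays, 56 groups (14 genes) were examined for an array far from the others, and 3 were found, about the 1 in 20 that chance gives. All 3 were contralateral 3 DPI arrays: Junb read 6.55 in replicate 3, Ier3 read 7.05 in replicate 2, and Jun read 9.16 in replicate 4. The first 2 were the lowest of their group and the last the highest. Leaving that array out, the 3 DPI change was 0.83 for Junb and 1.05 for Ier3, with the call of Ier3 kept.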

How the results depend on the processing

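Of 1179 values of members under the 27 alternatives, 1168 stayed on their side of the threshold. None lost a call and none reversed, and 11 gained a call, 7 of them only because the fold minimum was dropped. Many of the 1179 could hardly move, so this count is no measure of stability. No member had over 1 probe set, so averaging probe sets left every change as it was. Leaving out an array of a group not compared did the same. Most of the 45 member results were not called in the main fit and had no call to lose. On the adjusted p alone, Atf3 passed for the difference also without the dimmest genes (0.04), with trend and robust settings (0.033) and with array weights (0.026), and Fosl1 and Ier3 passed between injured nerves with the compared groups alone (0.033 and 0.044), Ier3 also with cyclic loess (0.044) and without the dimmest genes (0.048). At 7 DPI Junb no longer passed with the compared groups alone (0.061). Without the fold minimum, 6 members passed at 7 DPI and 2 between the injured days, and 6084, 5833, 312, 730 and 13 of all genes passed in the comparisons at 3 DPI, at 7 DPI, of the difference, between injured and between contralateral nerves. Contralateral nerves of the 2 days differed in 2 of all genes, in 5 without the dimmest 30% of genes, in 8 with array weights, in 0 with the compared groups alone (limma) and in 0 to 16 when 1 array was left out (16 without contralateral 3 DPI replicate 1), and no member was called in any of them. Leaving out 1 array gave 4 members at 3 DPI and 2 to 3 at 7 DPI. Same-numbered nerves of a day correlated at -0.08 to 0.22 in their deviations, and in 5 of 8 the same number gave the best match among the 4 numbers. Neither the labels nor these values settle whether a number marks 1 animal, and the tests reported leave the number out. With a replicate block the counts of all genes were 1055, 849, 66, 58 and 2, and the members called stayed at 4, 2, 0, 0 and 0. The Fos difference of the effects had a limma adjusted p of 0.018, below 2-fold. The block was a fixed term in the injury comparisons and their difference. Between the days of 1 side it was a random term with a consensus correlation of 0.033. A correlation so low left the counts of 58 and 2 as in the main fit. The compared groups alone could not be used for the difference of the effects, nor pooled controls outside the injury comparisons. Low signal was not set against background, which limits what can be said of Fosb and Egr3. The same holds for the contralateral Fosl1 values (5.44 to 6.58), from which its fold changes are counted.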

Other observations

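The genes whose values followed a member most closely over the 16 arrays, group differences included, are given as a description with no test. Of the 18166 genes, those whose symbol begins with LOC or RGD were left out of this ranking. Fosl1 was followed by Hmga1, a chromatin protein (r = 0.985), Eif4a1 (0.975) and Dusp10, a MAP kinase phosphatase (0.974), and Atf3 by Slc39a6 (0.993), Pacc1 (0.992) and Tafa5 (0.991). Fos was followed by Esyt1 (0.958), Mical2 (0.95) and Junb (0.95), and Junb by Fos, Esyt1 and Zyx (0.918). Ier3 lay closest to the condensin gene Ncapd2 (0.973) and Egr1 to Bloc1s4 (0.90), with Ier2 next (0.883). Jund had Agrn (0.893), and the flat members Fosb and Egr3 had Chmp4c (0.827) and Lbx2 (0.877).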
